A study of Mus musculus with 6 samples.

Results

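Chad, Fam20a, Tns4 and B4galnt4 are 4 genes of the 22298 measured in these thymus libraries. They were chosen from the genes with the highest fold change between the genotypes, as genes higher in Cd4Cre with no known role in thymocytes, so the genotype difference of each is given as a description with no test. RNA sequencing covered 3 libraries from Toxf/f mice, whose Tox gene carries loxP sites but whose cells have no Cre recombinase, and 3 libraries from Toxf/fCd4Cre mice, which carry the same floxed alleles and a Cre driven by Cd4 regulatory sequences. The mice were C57BL/6 and untreated. In each genotype replicate 1 was taken at 4 weeks of age and the other replicates, 2 and 3, at 3 weeks. The labels do not say that replicates are separate mice. By age and by Y-linked reads (below) the 3 controls came from different sources, and by age Cd4Cre replicate 1 differed from replicates 2 and 3. Nothing in the labels separates Cd4Cre replicates 2 and 3, so the spread between those libraries may be technical. No group had Cd4Cre with an intact Tox gene, so effects of Cre and of Tox loss cannot be told apart.

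The sample titles name double-negative (DN) thymocytes, which lack surface CD4 and CD8, and the extraction protocol names sorted DN2 cells. The libraries held 14550593 to 16099023 estimated counts. Tox stood at 99.2 to 109 CPM (counts scaled to library size) in the controls and at 10.2 to 15.1 CPM in the Cd4Cre libraries. Of the markers of the DN2 stage, Kit was at 11.7 to 23.2 CPM, Cd44 at 34.3 to 49.5 CPM and Il2ra, which encodes CD25, at 92.4 to 113 CPM, whereas the coreceptor genes of later thymocytes were higher, Cd4 at 878 to 1003 CPM and Cd8a at 1658 to 2056 CPM. Krt18, a keratin of simple and cortical epithelium and not of thymocytes, was at 324 to 495 CPM. Control replicate 2 held 3740 counts of Y-linked genes, and the other 5 libraries held 2 to 5.

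The proteins of the 4 genes have different roles. Chad encodes chondroadherin, a leucine-rich repeat protein of cartilage matrix that binds collagen and integrins. Fam20a encodes a pseudokinase of the secretory pathway that aids its relative Fam20C in phosphorylating secreted proteins, and its loss in people disturbs tooth enamel. Tns4 encodes tensin 4 (Cten), a focal adhesion protein of epithelial cells that lacks the actin-binding part of the other tensins. B4galnt4 encodes an enzyme that adds N-acetylgalactosamine to N-acetylglucosamine at the ends of glycans, a unit called LacdiNAc.

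The bases just before the start sites are shown because the genes were high in the same libraries, so that their promoters can be compared. The RefSeq table (build GRCm38.p6) held a start site for 3 of the 4 genes: Chad, at chr11:94564797-94565046 on the + strand, Fam20a, at chr11:109722239-109722488 on the - strand, and B4galnt4, at chr7:141060728-141060977 on the + strand. Each sequence is the 250 bases before the start, 5′ to 3′ on the strand of the gene. Capitals mark matches on either strand to TATAAA (the TATA box), to CCAAT (the CCAAT box, ATTGG on the other strand), to GGGCGG (the GC box) and to ACAAAG (a core bound by the HMG-box factors TCF and LEF).
Chad: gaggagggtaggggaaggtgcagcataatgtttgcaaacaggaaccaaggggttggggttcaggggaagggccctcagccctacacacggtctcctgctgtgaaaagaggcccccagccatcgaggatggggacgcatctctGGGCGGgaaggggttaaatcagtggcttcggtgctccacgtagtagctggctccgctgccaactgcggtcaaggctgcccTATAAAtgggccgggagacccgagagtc
Fam20a: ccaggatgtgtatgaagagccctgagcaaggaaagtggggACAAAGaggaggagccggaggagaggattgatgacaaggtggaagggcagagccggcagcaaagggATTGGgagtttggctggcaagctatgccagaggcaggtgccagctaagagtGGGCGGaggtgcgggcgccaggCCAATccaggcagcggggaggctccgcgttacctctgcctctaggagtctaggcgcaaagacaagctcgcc
B4galnt4: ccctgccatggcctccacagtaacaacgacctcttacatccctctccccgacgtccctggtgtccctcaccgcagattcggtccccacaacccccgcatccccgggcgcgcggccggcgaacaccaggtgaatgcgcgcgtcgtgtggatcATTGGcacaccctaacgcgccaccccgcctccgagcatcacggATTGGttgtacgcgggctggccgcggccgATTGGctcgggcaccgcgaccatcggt

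None of the marked motifs was found in all 3 windows. An E box (CANNTG, not marked), a core bound by helix-loop-helix factors, was found once in each, at position -49 in Chad, -111 in Fam20a and -126 in B4galnt4, and 66.2% of all promoter windows held one. Chad had a TATA box 28 bases before its start (position -28) and a GC box at position -108. Fam20a had CCAAT boxes at positions -144 and -71, a GC box at -93 and an ACAAAG match at -210. B4galnt4 had 3 CCAAT boxes, at positions -99, -56 and -27. Among 32841 promoter windows of the same length, 12.4% held TATAAA, 33.9% CCAAT, 32.7% GGGCGG and 16.5% ACAAAG. Base composition also differed: the B4galnt4 window held 30 CpG pairs and was 67.6% G or C, whereas the Chad and Fam20a windows held 10 CpG pairs each (60.4% and 61.2% G or C). The median window held 6 CpG pairs at 52.4% G or C. These matches describe letters only, and no binding was measured.

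All 4 genes were low in the controls and higher in every Cd4Cre library. Group means are given in CPM with their SD (n = 3). Each log2 fold change comes with its standard error (SE) from the edgeR fit. All 4 genes passed the filter on low counts, but that filter needs expression in only 1 group. Of 13934 genes tested, 11.3% had all 3 Cd4Cre libraries above all 3 controls, and 1.15% were called higher in Cd4Cre by edgeR. Since these values chose the 4 genes, their own lack of overlap adds nothing to that choice.

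Chad, the cartilage matrix gene, had 8, 10 and 4 counts in control replicates 1 to 3 and 117, 65 and 116 counts in the Cd4Cre replicates. These are 0.514, 0.683 and 0.266 CPM against 7.40, 4.05 and 8.07 CPM. The groups lay far apart, with the lowest Cd4Cre library 5.93 times the highest control. Within Cd4Cre, replicate 2 was lower than the others, and its 95% counting interval (exact Poisson, 3.13 to 5.16 CPM) did not reach those of replicates 1 (6.12 to 8.87) and 3 (6.67 to 9.68). Means were 0.488 ± 0.21 and 6.51 ± 2.15 CPM, 13.3 times apart, with a log2 fold change of 3.72 (SE 0.37). Only 22 counts in all supported the control level, which was above that of 0.287% of tested genes. In Cd4Cre the level was above that of 26.8% of them. Such intervals cover counting error only. They may be too narrow even for that, since no molecular identifiers separate reads copied from the same molecule.

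Fam20a, the secretory pseudokinase gene, had 16, 25 and 24 counts in the controls (1.03, 1.71 and 1.60 CPM) and 139, 100 and 90 in Cd4Cre (8.80, 6.23 and 6.26 CPM). The 4-week libraries held both the lowest control and the highest Cd4Cre value. Accordingly the ratio of Cd4Cre to control was 8.55 between the 4-week libraries and 3.78 between the means of the 3-week libraries. Over all libraries the means were 1.44 ± 0.364 and 7.10 ± 1.47 CPM, a log2 fold change of 2.30 (SE 0.24). In the 3-week libraries alone that value was 1.91.

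Tns4, the focal adhesion gene, had the highest read levels of the 4. Its counts were 36, 25 and 38 in the controls (2.32, 1.71 and 2.53 CPM) and 181, 114 and 145 in Cd4Cre (11.5, 7.11 and 10.1 CPM). Replicate 2 was the lowest library of each genotype. The lowest Cd4Cre library was 2.81 times the highest control, the smallest such gap of the 4 genes. Means were 2.18 ± 0.426 and 9.55 ± 2.22 CPM, with a log2 fold change of 2.12 (SE 0.23).

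B4galnt4, the LacdiNAc enzyme gene, had 24, 14 and 17 counts in the controls (1.54, 0.956 and 1.13 CPM) and 120, 103 and 82 in Cd4Cre (7.59, 6.42 and 5.71 CPM). It was the steadiest of the 4 genes across the Cd4Cre libraries, where its SD was 14.5% of the mean, against 20.7% for Fam20a, 23.3% for Tns4 and 33.1% for Chad. Means were 1.21 ± 0.302 and 6.57 ± 0.954 CPM, with a log2 fold change of 2.43 (SE 0.23). The ratio of Cd4Cre to control was 4.92 at 4 weeks and 5.81 at 3 weeks, beside 14.4 and 12.8 for Chad and 4.95 and 4.06 for Tns4. The difference in ratio between ages was not tested, since 1 library per genotype was 4 weeks old.

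**Figure D1:**
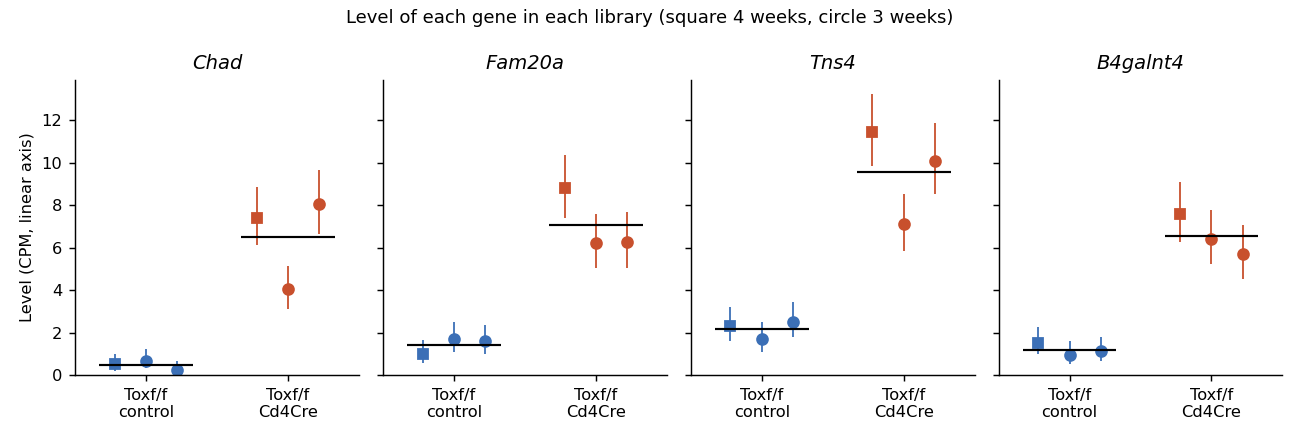
Level of each gene in each library in CPM on a linear axis from 0. Squares are 4-week and circles 3-week libraries, vertical lines are exact Poisson 95% counting intervals and horizontal lines are group means. All Cd4Cre libraries lie above all controls for each gene, and Chad shows the widest relative spread within Cd4Cre (4.05 to 8.07 CPM).

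Leaving out Gm and Rik names, among genes called higher that reached 2 CPM in the mean of either group, the 4 genes held ranks 3 (Chad), 6 (B4galnt4), 9 (Fam20a) and 11 (Tns4) by fold change. The gene just below Tns4 was Klrb1c (log2 fold change 2.10), a natural killer receptor gene, followed by Hapln1 (2.07) and Ccr2 (1.95). Without control replicate 2, the library with Y-linked reads, the log2 fold changes were 4.02 for Chad, 2.43 for Fam20a, 1.97 for Tns4 and 2.29 for B4galnt4.

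Per unit of transcript length the order of the genes was not that of the read counts. In the deposited FPKM values (fragments scaled to library size and transcript length), Chad had the highest mean in Cd4Cre (3.85 ± 1.27, n = 3), followed by Fam20a (2.77 ± 0.604), Tns4 (2.0 ± 0.471) and B4galnt4 (1.84 ± 0.282). The ranges of neighbours in that order overlapped, those of Fam20a (2.41 to 3.47) and Tns4 (1.49 to 2.42) only just. Within each Cd4Cre library Fam20a was above Tns4, whereas Chad and Fam20a, and likewise Tns4 and B4galnt4, changed places in replicate 2. Chad and Fam20a did not overlap with B4galnt4. In the controls Chad had the lowest mean (0.293 ± 0.126 FPKM), below B4galnt4 (0.343 ± 0.0874), Tns4 (0.46 ± 0.0889) and Fam20a (0.57 ± 0.142), but it was not the lowest in control replicate 2. Fold changes of the FPKM means, 13.1 for Chad, 4.87 for Fam20a, 4.35 for Tns4 and 5.36 for B4galnt4, were close to those in CPM.

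**Figure D2:**
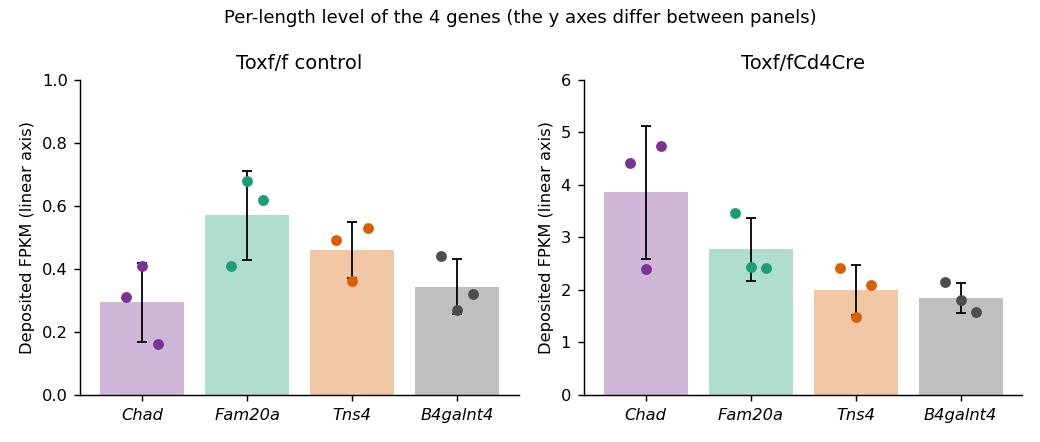
Deposited FPKM of the 4 genes by genotype, on linear axes that differ between the panels. Bars are means, error bars are SD (n = 3) and points are libraries. Chad has the lowest mean in the controls (0.293) and the highest in Cd4Cre (3.85).

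Age is the other variable in the labels, and it did not enter the choice of the genes. In a fit with genotype and age, edgeR called 0 of 13934 genes (0%) at an adjusted p of 0.05, and 250 had an unadjusted p under 0.05. DESeq2 and limma-voom each called 1 gene. The 4 genes had log2 differences (4 weeks minus 3 weeks) of 0.26 (SE 0.36) for Chad, 0.14 (SE 0.26) for Fam20a, 0.31 (SE 0.22) for Tns4 and 0.40 (SE 0.21) for B4galnt4, each with an edgeR adjusted p of 1.00. With 2 libraries against 4, and replicate 1 always the 4-week one, age and replicate number cannot be told apart.

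Within each genotype the 4 genes did not follow a common order of libraries. Across all 6 libraries the Pearson correlation of log2 CPM between pairs of them was 0.94 to 0.97 over the 6 pairs, and Spearman's rho was 0.66 to 0.89. The libraries fall into 2 genotypes, so these values carry the difference that chose the genes. After each genotype's mean was taken away, the correlations over the same 6 libraries ran from -0.35 (Fam20a with B4galnt4) to 0.47 (Tns4 with B4galnt4), with Chad at 0.13 with Fam20a, 0.13 with Tns4 and -0.09 with B4galnt4. Cd4Cre replicate 1 was above the genotype mean for all 4 genes (by 0.21 to 0.32 on the log2 scale), and Cd4Cre replicate 2 was below it for all 4 (by -0.61 to -0.02). In the controls no library was on the same side for all 4 genes. The summed level of erythroid genes also set libraries apart, at 701, 572 and 2244 CPM in control replicates 1 to 3 and 1489, 2614 and 703 CPM in the Cd4Cre replicates. Within each genotype the order of the libraries for Chad was the reverse of that order, and the part of erythroid RNA in the levels of Chad was not tested. Fam20a, Tns4 and B4galnt4 had the reverse order in neither genotype, and in the controls Tns4 had the same order as the erythroid genes. Control counts were as low as 4, and 6 points with 2 means removed describe these libraries only.

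**Figure D3:**
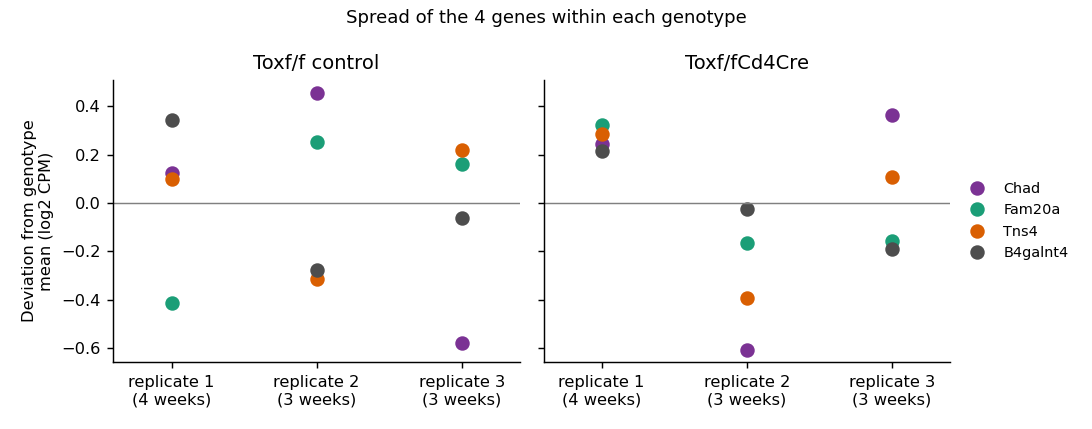
Deviation of each gene from its genotype mean in log2 CPM, by library. Points above 0 are libraries above the mean of their genotype. In Cd4Cre all 4 genes are above the mean in replicate 1 and below it in replicate 2, whereas in the controls Chad ranges from -0.58 to 0.46 with no order shared by the others.

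The genes whose pattern was most like each of the 4 were found by Pearson correlation of log2 CPM over the 6 libraries, among genes of at least 5 CPM. For Chad these were Ubl5, Psen2 and Cd3eap (r from 0.994 to 0.997), for Fam20a Entpd5, Rps6kb2 and Lysmd2 (0.993 to 0.998), for Tns4 Cd8a, Akr1c12 and Ttc7b (0.994 to 0.997), and for B4galnt4 Ssbp2, Krt18 and Zfp524 (0.994 for each). A high correlation did not mean a like fold change. Cd8a, the coreceptor gene at the head of the Tns4 list, had a log2 fold change of 0.24, and Krt18 had 0.47. Akr1c12, an aldo-keto reductase gene, came nearest in size, from 3.54, 2.94 and 3.26 CPM in the controls to 13.0, 8.29 and 11.9 CPM in Cd4Cre (log2 fold change 1.76). On deviations from the genotype means the closest were Lamtor3 for Chad, Stx4a for Fam20a, Lancl1 for Tns4 and Adgrg5 for B4galnt4 (r from 0.997 to 0.998). None of these 4 had been among the closest over all 6 libraries. These are the highest values out of all genes above that level, and all 6 points carry the genotype difference in the first measure.

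Lymphoid and epithelial genes as whole classes were not close to any of the 4. Over 89 tested lymphoid genes the median correlation over the 6 libraries was 0.04 for Chad, 0.12 for Fam20a, 0.10 for Tns4 and 0.11 for B4galnt4. Over 83 epithelial genes it was 0.20, 0.15, 0.24 and 0.26 in the same order. Positive values were found for 45 to 47 of the 89 lymphoid and 44 to 50 of the 83 epithelial genes, beside 51.5% to 51.9% of all tested genes.

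Single lists within both classes stood at opposite ends. Gamma-delta T cell genes had a median correlation of 0.87 to 0.89 with the 4 genes, and cortical thymic epithelium genes 0.84 to 0.93. Genes of natural killer (NK) and cytotoxic cells (0.49 to 0.59) and of keratinized epithelium (0.49 to 0.54) were also on the positive side. Alpha-beta thymocyte genes were there too, at 0.40 to 0.47. Mature T cell genes were at -0.94 to -0.89, B and plasma cell genes at -0.76 to -0.64 and medullary thymic epithelium genes at -0.73 to -0.59. For each of these lists the sign is that of its median log2 fold change between genotypes. On deviations from the genotype means, cortical epithelium genes had a median of 0.50 with B4galnt4 but -0.42 with Chad, -0.29 with Tns4 and -0.25 with Fam20a. Chad had medians of 0.60 with mature T cell genes, 0.55 with keratinized epithelium, 0.52 with NK and cytotoxic cell genes, 0.45 with endocrine epithelium and 0.42 with medullary epithelium genes. Outside both classes it had -0.59 with fibroblast genes. B4galnt4 had 0.42 with B and plasma cell genes. Fam20a and Tns4 lay between -0.30 and 0.39 with every lymphoid and epithelial list.

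**Figure D4:**
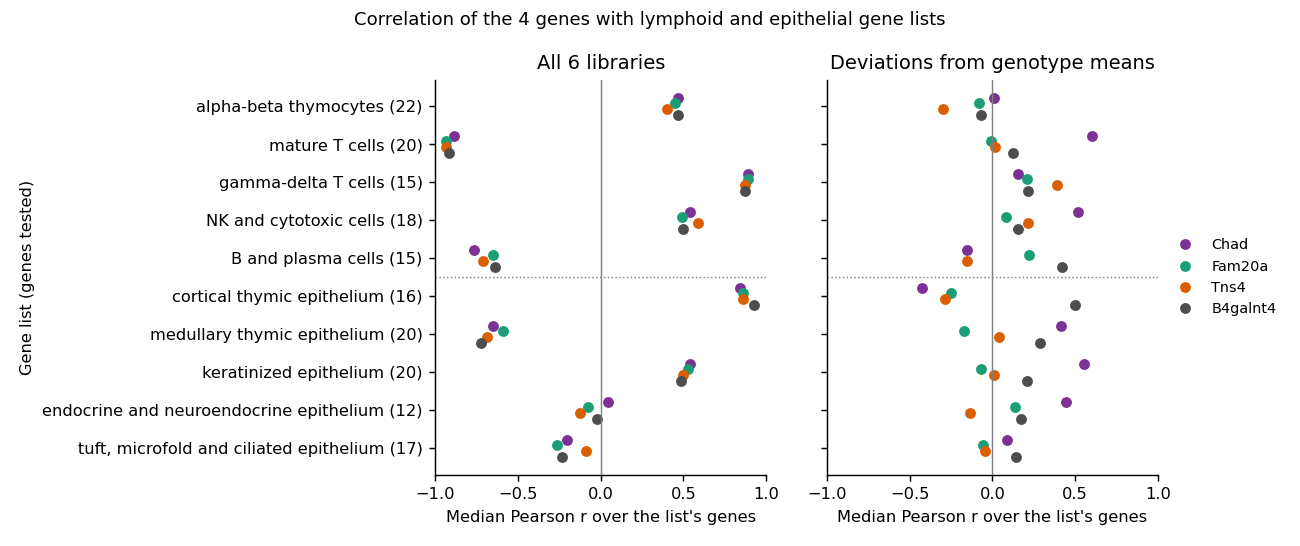
Median Pearson correlation of each of the 4 genes with the tested genes of 10 lists, lymphoid above the dotted line and epithelial below. The left panel uses log2 CPM over all 6 libraries and the right panel deviations from genotype means. The 4 genes lie together in the left panel, from about -0.94 for mature T cells to 0.93 for cortical epithelium, and separate in the right panel.

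The same lists differed between the genotypes in their levels, in both directions. The lists were drawn up with earlier results of these data known, so their shares of called genes are a description only. In all, 4.11% of tested genes were called by edgeR (adjusted p under 0.05), 1.15% higher and 2.96% lower in Cd4Cre, and the median log2 fold change was 0.01. Of 15 gamma-delta T cell genes 8 were higher and 1 lower (median 0.57), with a summed level of 687 to 699 CPM in the controls and 1002 to 1082 CPM in Cd4Cre. Of 18 NK and cytotoxic cell genes 7 were higher (median 0.29), at 188 to 190 CPM against 204 to 255 CPM in sum. The lowest of these Cd4Cre sums was that of replicate 2, as it was for Chad, for Tns4 and, by little, for Fam20a. B4galnt4 was lowest in replicate 3. Replicate 2 also held the lowest Cd4Cre sum of the gamma-delta, mature T cell, medullary, endocrine and tuft epithelium lists. It held the highest Cd4Cre sum of the cortical and alpha-beta thymocyte lists. Of 20 mature T cell genes 12 were lower (median -0.71). Whether cells of these types are more numerous or hold more of these transcripts cannot be told apart in bulk RNA, for the lists and for the 4 genes alike.

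Epithelial lists gave a mixed picture. Of 16 cortical epithelium genes 8 were higher (median 0.28), with sums of 4377 to 4678 CPM in the controls and 5325 to 5925 CPM in Cd4Cre. Of 20 medullary epithelium genes 1 was higher and 8 were lower (median -0.39), with sums of 777 to 916 CPM and 676 to 733 CPM. Of 20 keratinized epithelium genes 3 were higher (Krt6a, Krt6b and Pkp1, median 0.23) at 106 to 119 CPM against 132 to 149 CPM in sum. Epcam, a surface marker of epithelium as a whole, ranged from 38.4 to 49.1 CPM in control libraries and from 41.4 to 46.8 CPM in Cd4Cre and did not pass (log2 fold change -0.01, SE 0.10). The sums of the gamma-delta, NK, cortical, keratinized, endocrine and alpha-beta thymocyte lists were higher in every Cd4Cre library than in every control, as the 4 genes were, and the part of such cells in the levels of the 4 genes was not tested. Alpha-beta thymocyte sums were close, at 22116 to 22261 CPM in the controls and 22975 to 23804 CPM in Cd4Cre. Of the 22 genes on that list 1 was higher and 1 lower (median 0.09). In the endocrine list (29.5 to 36.3 CPM against 50.05 to 55.1 CPM in sum) 1 of 12 tested genes was higher and 1 lower, with a median log2 fold change of -0.09. Its higher gene, the prohormone convertase gene Pcsk1, went from 3.93 to 24.4 CPM, a difference at least as large as that between the mean sums of the list. No gene of these lists was at 0 in all 6 libraries. The cortical, keratinized and medullary counts depended on which libraries were used, while the endocrine count stayed at 2 with any 1 left out. The 8 cortical calls became 3 without control replicate 2 and 4 without control replicate 1, control replicate 3 or Cd4Cre replicate 1. They became 10 without Cd4Cre replicate 3. Calls over all genes also fell without any 1 control or Cd4Cre replicate 1, and rose without Cd4Cre replicate 3. The 3 keratinized calls became 1 without control replicate 2, control replicate 3 or Cd4Cre replicate 1, and Krt6a remained in each case. The 9 medullary calls became 4 without control replicate 1 and 5 without control replicate 2. For gamma-delta, NK and mature T cell genes the counts stayed at 9, at 6 to 8 and at 11 to 13 with any 1 library left out. In the 3-week libraries alone some of these calls were lost, such as Blk (edgeR adjusted p = 0.078), Klra1 (0.055) and S1pr1 (0.085). Others stayed, such as Cd163l1 (2.8e-05), Klrk1 (0.0038) and Gimap4 (0.00025). Of the endocrine calls, Scg5 was lost there (edgeR adjusted p = 0.084) and Pcsk1 stayed (0.00024).

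The relatives and partners of the 4 genes were called about as often as genes in general. Of 121 genes on the family, partner and context lists, 91 were tested, of which 2 were higher (2.20%), 2 lower (2.20%) and 87 did not pass, beside 1.15% higher and 2.96% lower over all genes tested. Their median log2 fold change was 0.00, and not passing does not show that a gene stayed the same.

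Both higher genes were matrix genes on the lists drawn up for Chad. Podnl1, a secreted leucine-rich repeat protein gene, had control values of 1.35, 1.09 and 1.40 CPM, against 5.82, 3.68 and 4.66 CPM in Cd4Cre. The groups did not overlap (log2 fold change 1.87, SE 0.25, edgeR adjusted p = 0.0011). It was the only gene called among 13 tested leucine-rich repeat proteoglycans, whose median was -0.37 (2 were called without Cd4Cre replicate 3 or without control replicate 1), and the others included the fibroblast products Dcn (102 and 79.1 CPM) and Bgn (40.0 and 29.1 CPM). Hapln1, which links hyaluronan to aggrecan in cartilage, had 8, 10 and 4 counts in the controls and 26, 42 and 28 counts in Cd4Cre (log2 fold change 2.07, SE 0.38, adjusted p = 0.0085). Among 12 cartilage genes tested it was the only one called. In the 3-week libraries alone Hapln1 did not pass (edgeR adjusted p = 0.084), while Podnl1 did (0.041). Acan, which encodes aggrecan, was at 2.75 and 2.92 CPM, and Sox9, the cartilage transcription factor, at 3.48 and 3.81 CPM, neither past the threshold. Col2a1, the main collagen of cartilage, had 31 counts in the controls and 19 in Cd4Cre and was too low to test.

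None of the 4 collagen-binding integrin genes tested was called. Itgb1, the beta chain they share, was at 353 and 314 CPM (log2 fold change -0.17, SE 0.08, adjusted p = 0.29). Itga2, an alpha chain that pairs with it on cells that bind collagen, was at 1.93 and 1.48 CPM.

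Fam20c, the active kinase that Fam20a assists, moved opposite to Fam20a. Its control values were 8.36, 7.85 and 8.65 CPM, against 5.38, 4.55 and 5.08 CPM in Cd4Cre, without overlap (log2 fold change -0.73, SE 0.15, adjusted p = 0.016). That call was lost when any 1 control library was left out. Fam20b, a xylose kinase of proteoglycan synthesis, was at 89.1 and 91.2 CPM and did not pass. In FPKM, Fam20a went from below Fam20c in the controls (0.57 against 2.32) to above it in Cd4Cre (2.77 against 1.39). Of 7 enamel and biomineral genes tested only Slc24a4, a calcium exchanger of enamel-forming cells, was called, from 3.09, 2.19 and 3.06 CPM to 1.08, 1.12 and 1.25 CPM (log2 fold change -1.27, adjusted p = 0.017). It was lost without control replicate 1 or 3 or Cd4Cre replicate 1. Of the enamel matrix genes, Amelx had 29 and 24 counts, Enam 11 and 20, and Ambn 3 and 6.

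The other tensins and the focal adhesion genes did not pass. Tns1 was at 90.7 and 97.5 CPM, Tns2 at 9.81 and 12.1 CPM and Tns3 at 78.1 and 83.9 CPM, with log2 fold changes of 0.10 (SE 0.15), 0.31 (SE 0.20) and 0.11 (SE 0.09). Per length Tns4 stayed the lowest of the family, at 2.0 FPKM in Cd4Cre beside 14.2 for Tns1, 11 for Tns3 and 2.60 for Tns2. Of 26 focal adhesion genes tested 0 were called, with a median log2 fold change of -0.02 (1 was called without Cd4Cre replicate 3).

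Among enzymes related to B4galnt4 no gene was called. B4galnt3, the other enzyme that makes LacdiNAc, had 32 counts in the controls and 26 in Cd4Cre and was not tested. B4galnt1, which acts on gangliosides, was at 116 and 93.9 CPM (log2 fold change -0.31, SE 0.10, adjusted p = 0.12), and it passed without Cd4Cre replicate 2. Of 6 beta-1,4-galactosyltransferases and 12 N-glycan enzymes tested 0 passed, with medians of -0.07 and -0.01. Chst8, which adds sulfate to LacdiNAc, was at 2.95 and 4.00 CPM (log2 fold change 0.44, SE 0.21, adjusted p = 0.35).

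Neighbours on the chromosome were examined next, because 3 of the 4 genes (Chad, Fam20a and Tns4) lie on chromosome 11 and B4galnt4 lies on chromosome 7 in GENCODE M21. They are not neighbours of each other. Of the 5 nearest measured genes on either side of each, 40 in all, 31 were tested, 0 were higher, 2 were lower and 29 did not pass, beside 4.11% called in either direction over all genes tested. With 31 genes tested, 2 calls are too few to set the neighbours apart from that share. The median log2 fold change was 0.04.

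Tns4 lay between both lower genes. Igfbp4, which encodes a binding protein of insulin-like growth factors, had control values of 61.5, 65.7 and 64.8 CPM, against 35.3, 33 and 30.5 CPM in the Cd4Cre libraries (log2 fold change -0.96, SE 0.08, adjusted p = 3.49e-05). On the other side Ccr7, the chemokine receptor that draws thymocytes to the medulla, went from 75.8, 80.2 and 63.8 CPM to 33.3, 26.6 and 27.5 CPM in Cd4Cre (-1.33, SE 0.11, adjusted p = 3.45e-05). Tns4 was chosen for its difference between the genotypes, so it is not counted with these neighbours. As given above, calls among the neighbours were too few to set them apart from all genes tested. Igfbp4 and Ccr7 were each lower in every Cd4Cre library than in every control. Neither call was lost without any 1 library. Smarce1, which follows Ccr7, was at 248 and 252 CPM, and Top2a, which precedes Igfbp4, at 1229 and 1143 CPM.

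Fam20a had a neighbour with a similar direction but few reads. The gene 1700012B07Rik had 0, 0 and 1 counts in the controls and 13, 9 and 5 counts in Cd4Cre, a ratio of 26.4 with a 95% counting interval of 4.35 to 1082. It did not pass the filter on low counts. With no filter its adjusted p was 0.018 (edgeR, log2 fold change 4.28). Prkar1a, on the other side and 93 bases from Fam20a in GENCODE M21, was at 504 and 517 CPM and did not pass.

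Chad lies inside Acsf2, a gene of fatty acid metabolism on the opposite strand, and shares 0 of its 1680 exon bases with exons of Acsf2. Acsf2 had control values of 17.0, 15.2 and 14.8 CPM, against 19.6, 23.6 and 16.1 CPM in Cd4Cre, with overlap between groups (log2 fold change 0.33, SE 0.14, adjusted p = 0.25). Among the Cd4Cre libraries Acsf2 was highest in replicate 2, where Chad was lowest. Whether counting used strand is not given in the sources used here, and without it reads of Chad and of the Acsf2 intron cannot be told apart. Near B4galnt4, Ifitm1, a gene of the same family of interferon-induced membrane proteins as Ifitm3, was at 4.13 and 5.92 CPM with every Cd4Cre library above every control, but did not pass (log2 fold change 0.52, SE 0.16, adjusted p = 0.13). Next to B4galnt4, Pkp3, a desmosome gene of epithelium, was at 18.6 and 21.1 CPM (log2 fold change 0.18, SE 0.12). Ifitm3, an antiviral membrane protein gene further away on the other side, was at 74.4 and 64.1 CPM. Neither Pkp3 nor Ifitm3 passed.

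**Figure D5:**
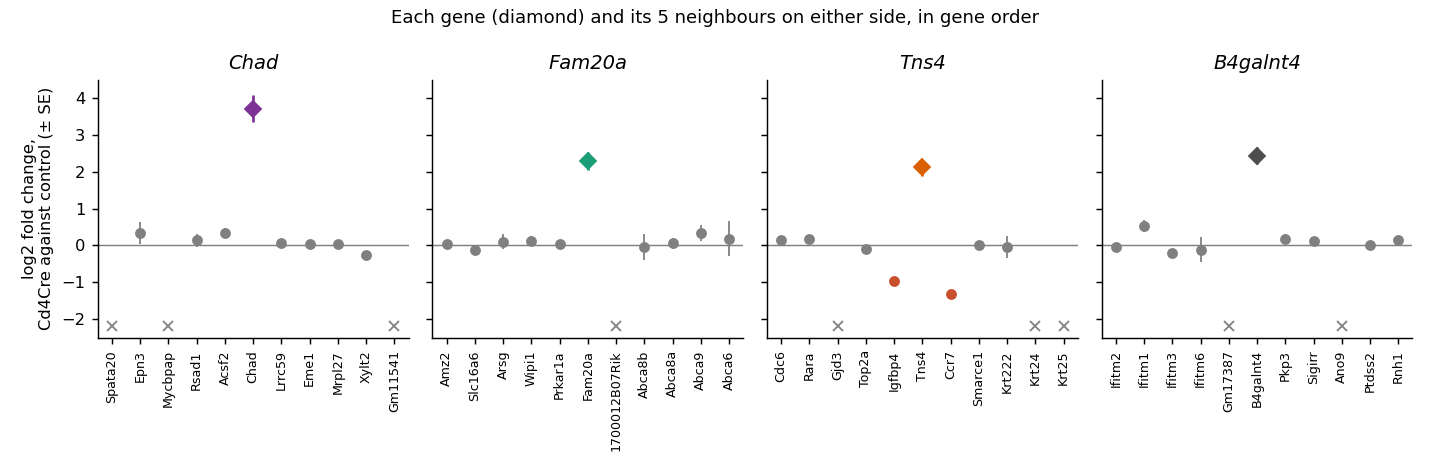
Log2 fold change of each gene (diamond) and of its 5 measured neighbours on either side in gene order, with SE bars. Circles in red passed the test, grey circles did not, and crosses mark genes too low to test. Igfbp4 (-0.96) and Ccr7 (-1.33) lie on either side of Tns4 (2.12), and the other tested neighbours lie between -0.26 (Xylt2) and 0.52 (Ifitm1).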

How the data were processed

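Per the labels' protocols, RNA was extracted with Trizol and prepared with the NEBNext Ultra kit. For every Ensembl gene each deposited table holds the estimated count of 1 library beside its FPKM. Use of fastp 0.18.0, HISAT2 and StringTie 1.3.1 is recorded per the submitters' processing notes. Not given in the sources used here are the counting program, genome build and use of strand. Estimated counts (9.27% to 9.87% of values per library not whole) were rounded. They were analysed in R 4.3.3 with edgeR 4.0.16: filterByExpr (minimum count 10, minimum total 15), TMM, quasi-likelihood test, two-sided, Benjamini-Hochberg adjustment over 13934 genes, threshold 0.05. The procedure was run on simulated counts with known fold changes. A minimum recovery was required there for the genotype contrast and not for age. Correlations used log2 CPM with a prior count of 2. Of 22298 identifiers, 22255 were found in GENCODE M21, used for neighbours and exon overlap.

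The 4 genes and all gene lists were chosen with earlier results of these data known. Genes named are the 4, their families and partners, their 5 neighbours on either side, the 3 most alike genes by either correlation, and genes called in, or with the smallest p of, each list. Alternatives were other filters, DESeq2 1.42.0, limma 3.58.1 (voom, and log2 FPKM with 0.1 or 1 added), age or replicate terms, the 3-week libraries alone and leaving out each library.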

Additional observations from a re-analysis of the deposited data

How the results depend on the processing

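All 4 genes kept a positive log2 fold change under each of 16 alternatives. They were chosen for that sign, and without overlap between the groups leaving out a library could not turn it. Only the size is therefore of interest. With 1 library left out it ran from 3.43 to 4.02 for Chad, 2.10 to 2.43 for Fam20a, 1.97 to 2.30 for Tns4 and 2.29 to 2.65 for B4galnt4. It moved by more than the replicate SD for Fam20a in the 3-week libraries alone (1.91), for B4galnt4 on log2(FPKM + 0.1) (2.14), and for each gene on log2(FPKM + 1), a scale that shrinks low values: 1.88 for Chad, 1.26 for Fam20a, 1.03 for Tns4 and 1.08 for B4galnt4. Genes called between genotypes numbered 572, 151 in the 3-week libraries alone (fewer samples), and 298 to 1269 with 1 library left out (309 without control replicate 1, 298 without control replicate 2, 330 without Cd4Cre replicate 1, 1269 without Cd4Cre replicate 3; the cause was not tested). Genes called between ages numbered 0, 1 by DESeq2, limma-voom and limma on log2(FPKM + 1), 2 on log2(FPKM + 0.1) and with no filter, and 0 to 1 with 1 library left out. Same-numbered libraries did not deviate together over the tested genes (r = 0.08, -0.11 and -0.04 for replicates 1 to 3). Such values cannot exclude that the libraries were paired, and same-numbered libraries share their age. With the replicate block 440 genes were called, and the log2 fold changes were 3.68, 2.28, 2.12 and 2.44 for Chad, Fam20a, Tns4 and B4galnt4. Depth limits the controls, where Chad had 22 counts and B4galnt4 55 in all.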
